A study of Mus musculus with 12 samples.

Results

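Keratins are the intermediate filament proteins of epithelial cells. The genes described here are the rows of the deposited mouse count table whose symbol is Krt followed by a number and at most 1 letter, which leaves out the keratin-associated proteins and Krtdap. There were 50 of them among 31332 rows, 27 on chromosome 11 and 23 on chromosome 15. They were followed in cortical (cTEC) and medullary (mTEC) thymic epithelial cells sorted from mice with and without a Cre that targets the Liver X Receptors in thymic epithelium. The reads came from 12 libraries, 3 in each of 4 groups, all from C57BL6/J mice of 2 months. The Cre groups carried FoxN1-Cre with floxed alleles of LXRalpha and LXRbeta, and the control groups carried the same floxed alleles without the Cre. Foxn1, whose promoter drives the Cre by its name, is expressed in the epithelium of both thymic cortex and medulla. Neither separate nor pooled animals are mentioned in the labels, so p-values measure the spread between libraries, which may be technical.

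A keratin filament is built from pairs of 1 type I and 1 type II protein, and each epithelial layer uses its own pairs. Simple epithelia use Krt8 with Krt18, the basal layer of stratified epithelia uses Krt5 with Krt14, and epidermal cells that leave the basal layer switch to Krt1 with Krt10. Krt6, Krt16 and Krt17 are induced in injured or fast-dividing epithelium, and the remaining members serve mucosa, the hair follicle, hair and nail. In the thymus Krt8 and Krt18 are used as markers of the cortex and Krt5 and Krt14 as markers of the medulla, while terminally differentiated medullary cells make keratins of the cornified epidermis. Type I genes other than Krt18 lie together on chromosome 11, and the type II genes lie on chromosome 15, where Krt18 sits beside its partner Krt8.

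Promoters of the 6 genes on which the results below turn are shown here as the 250 bases before the transcription start, 5′ to 3′, from RefSeq on build GRCm38.p6. Krt5 (chr15:101712906-101713155, minus strand) and Krt14 (chr11:100206031-100206280, minus strand) are the basal pair. Krt8 (chr15:102004343-102004592, minus strand) and Krt18 (chr15:102027966-102028215, plus strand) are the simple pair. Krt7 (chr15:101412153-101412402, plus strand) is a further simple keratin, and Krt10 (chr11:99389365-99389614, minus strand) belongs to the cornified epidermis. Capitals mark letters of the motifs searched.
Krt5: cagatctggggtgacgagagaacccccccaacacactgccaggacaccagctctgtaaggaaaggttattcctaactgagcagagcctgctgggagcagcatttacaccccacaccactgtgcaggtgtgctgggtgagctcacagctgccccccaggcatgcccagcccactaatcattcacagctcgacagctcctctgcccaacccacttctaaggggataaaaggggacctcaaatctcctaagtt
Krt14: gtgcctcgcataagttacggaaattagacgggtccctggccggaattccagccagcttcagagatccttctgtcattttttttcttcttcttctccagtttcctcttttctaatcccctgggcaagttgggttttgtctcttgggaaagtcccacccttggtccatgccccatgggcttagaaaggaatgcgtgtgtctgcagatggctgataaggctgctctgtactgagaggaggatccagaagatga
Krt8: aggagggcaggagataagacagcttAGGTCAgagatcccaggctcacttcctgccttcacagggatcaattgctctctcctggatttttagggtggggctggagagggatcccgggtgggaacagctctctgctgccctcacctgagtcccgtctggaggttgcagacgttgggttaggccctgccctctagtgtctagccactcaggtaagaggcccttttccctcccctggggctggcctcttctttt
Krt18: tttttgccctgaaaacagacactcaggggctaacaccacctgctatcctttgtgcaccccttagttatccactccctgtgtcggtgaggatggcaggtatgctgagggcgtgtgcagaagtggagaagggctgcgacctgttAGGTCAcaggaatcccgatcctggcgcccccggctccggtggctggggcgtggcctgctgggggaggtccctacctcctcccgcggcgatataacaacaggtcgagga
Krt7: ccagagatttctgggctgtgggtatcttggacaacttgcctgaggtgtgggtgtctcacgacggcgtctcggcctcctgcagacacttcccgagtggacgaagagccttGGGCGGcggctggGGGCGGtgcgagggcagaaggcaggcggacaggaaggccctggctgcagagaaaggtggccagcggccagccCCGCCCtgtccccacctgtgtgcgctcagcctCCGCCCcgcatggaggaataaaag
Krt10: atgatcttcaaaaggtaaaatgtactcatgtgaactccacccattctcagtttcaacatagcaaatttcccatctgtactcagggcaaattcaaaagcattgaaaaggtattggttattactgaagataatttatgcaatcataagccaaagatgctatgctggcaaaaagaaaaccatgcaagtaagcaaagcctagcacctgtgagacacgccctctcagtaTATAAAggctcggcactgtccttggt
Both strands were searched for the TATA box TATAAA, the AP-1 site TGANTCA, the SP1 box GGGCGG, the nuclear receptor half-site AGGTCA and the direct repeat to which LXR with RXR binds, which is 2 such half-sites spaced by 4 bases and so contains the half-site. Krt10 held the TATA box, with its first base 26 bases before the start, and Krt7 held 4 SP1 boxes. Krt8 and Krt18 each held 1 half-site, at 225 and 108 bases before the start, while Krt5 and Krt14 held none of the 5 motifs in this window. Over all 32851 RefSeq windows of this length, 12.4% held the TATA box, 6.75% the AP-1 site, 32.7% the SP1 box, 14% the half-site and 0.0152% the repeat. Among 35 windows of 34 keratin genes the counts were 16, 2, 2, 7 and 0 in the same order of motifs. A match describes letters and not a bound site.

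Library totals ran from 4804697 counts (Cre cTEC library 11) to 11159013 (control mTEC library 1), and keratins took 0.726% to 1.33% of them. The labels were checked with Nr1h2, the gene of LXRbeta, which stood at 96.2, 71.1 and 70.5 CPM in Cre mTEC and 109.7, 126 and 132 CPM in control mTEC, and at 119, 102 and 124 CPM in Cre cTEC and 168, 158 and 192 CPM in control cTEC. CPM relate a count to its library total and are scaled here by TMM, which is edgeR's correction for differences in library makeup. Nr1h3, the gene of LXRalpha, stayed between 5.84 and 10.7 CPM in all 12 libraries. Reads of any exon that remains are still counted, so these rows check the label only in part. Each group's defining markers matched its label: the mTEC gene Aire averaged 641 CPM in Cre mTEC and 864 CPM in control mTEC against 5.75 CPM in Cre cTEC and 10.3 CPM in control cTEC, and the cTEC gene Psmb11 averaged 22.9 CPM in Cre mTEC and 17.5 CPM in control mTEC against 697 CPM in Cre cTEC and 354 CPM in control cTEC. Library 11 stood apart from the other Cre cTEC libraries. Its log CPM correlated with library 10 at 0.967 across genes, the lowest value within any group, so cTEC results are given with and without it.

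The keratin classes took different shares in mTEC and cTEC. Simple keratins (Krt7, Krt8, Krt18, Krt19, Krt20, Krt23 and Krt80) took 29.8 ± 1.34% of keratin reads in Cre mTEC against 72.5 ± 6.39% in Cre cTEC, and 26.1 ± 1.1% in control mTEC against 56.4 ± 4.87% in control cTEC (SD, n = 3 libraries each). Basal keratins (Krt5, Krt14 and Krt15) took 41.7 ± 1.16% in Cre mTEC against 15.4 ± 2.9% in Cre cTEC, and 43 ± 1.74% in control mTEC against 28.6 ± 2.32% in control cTEC. Both classes were clear of overlap between mTEC and cTEC at either genotype. These shares are descriptions without a test, and scaling by transcript length changed none of these orders.

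**Figure D1:**
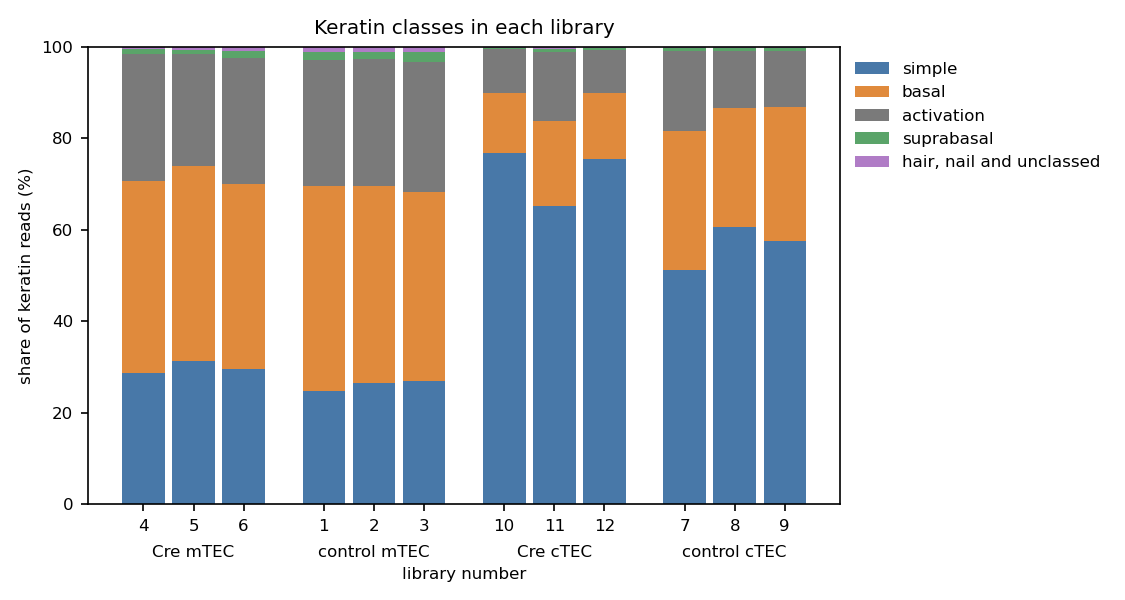
Share of keratin reads (y axis, percent) taken by each keratin class in each of the 12 libraries (x axis, library number by group); each bar is 1 library and stacks the classes from simple at the bottom to hair, nail and unclassed at the top. Simple keratins fill 65.2% to 76.8% of the bar in Cre cTEC and 51.1% to 60.7% in control cTEC, but at most 31.2% in either mTEC group.

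The same shares differed between genotypes in cTEC. Simple keratins took 76.8, 65.2 and 75.6% in Cre cTEC libraries 10, 11 and 12, against 51.1, 60.7 and 57.5% in control cTEC libraries 7, 8 and 9. Basal keratins took 13.2, 18.7 and 14.2% in Cre cTEC, against 30.4, 26 and 29.3% in control cTEC. Every Cre library lay above the controls for the simple share and below them for the basal share, with library 11 nearest to the controls. The higher simple share in Cre cTEC does not mean that each simple keratin was higher. Of the 7, only Krt18 and Krt8 had positive log2 fold changes over control cTEC, and 5 had negative ones. In the edgeR test below 2 simple keratins passed as lower and none as higher. In mTEC the simple share was 28.6, 31.2 and 29.6% in Cre libraries 4, 5 and 6 against 24.8, 26.5 and 26.9% in control libraries 1, 2 and 3, also higher in Cre and without overlap. There too only 2 of the 7 had positive log2 fold changes, Krt7 at 0.36 and Krt18 at 0.06, and 5 had negative ones. None of the 7 passed as higher in mTEC and 1 passed as lower. The suprabasal share in mTEC was 0.898, 0.862 and 1.415% in Cre and 1.82, 1.66 and 2.23% in control libraries, with every Cre library below every control. The basal share overlapped there, at 42, 42.7 and 40.4% in Cre mTEC and 44.8, 43 and 41.3% in control mTEC.

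The sum of all 50 keratins did not show such a shift. It reached 10476, 6776 and 8526 CPM in Cre cTEC against 8650.5, 8739 and 8545 CPM in control cTEC, with Cre libraries on both sides of the controls. In mTEC it reached 12772, 10987 and 9782 CPM in Cre and 12053, 12026 and 11907 CPM in control libraries, which also overlapped. The ratio of Krt5 and Krt14 to Krt8 and Krt18, taken per kilobase of transcript, was 0.145, 0.26 and 0.165 in Cre cTEC and 0.629, 0.42 and 0.494 in control cTEC. It was 1.84, 1.7 and 1.72 in Cre mTEC and 2.12, 1.94 and 1.81 in control mTEC, so the genotypes overlapped in mTEC and were apart in cTEC. The sum of type II over type I genes per kilobase was 0.594, 0.61 and 0.587 in Cre mTEC, 0.605, 0.57 and 0.575 in control mTEC, 0.379, 0.417 and 0.396 in Cre cTEC and 0.438, 0.46 and 0.448 in control cTEC. Type II RNA was thus the smaller part in all 12 libraries, and in cTEC the Cre libraries lay below the controls. Both held without length scaling too, where the ratio was at most 0.931 in any library. It was then 0.5692 to 0.6423 in Cre cTEC and 0.6785 to 0.7113 in control cTEC.

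Per kilobase, Krt17 led in mTEC, at 1916 ± 324 CPM per kb in Cre and 2142 ± 23.4 in control mTEC (SD, n = 3). Krt5 came next, at 1450 ± 244 CPM per kb in Cre and 1601 ± 88.5 in control mTEC. In Cre mTEC the SD ranges of Krt17 and Krt5 overlapped, as did those of Krt14 (859.6 ± 110) and Krt18 (851 ± 128). In cTEC Krt18 led instead, at 2697 ± 907 CPM per kb in Cre and 1789.9 ± 243 in control cTEC. Krt8 followed in Cre cTEC, at 896 ± 256 CPM per kb, with a range that touched that of Krt17 at 605 ± 68.0. Among control cTEC the next 4 places, Krt17, Krt5, Krt8 and Krt14, were held at 785, 657, 639 and 571 CPM per kb, and each overlapped its neighbour.

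**Figure D2:**
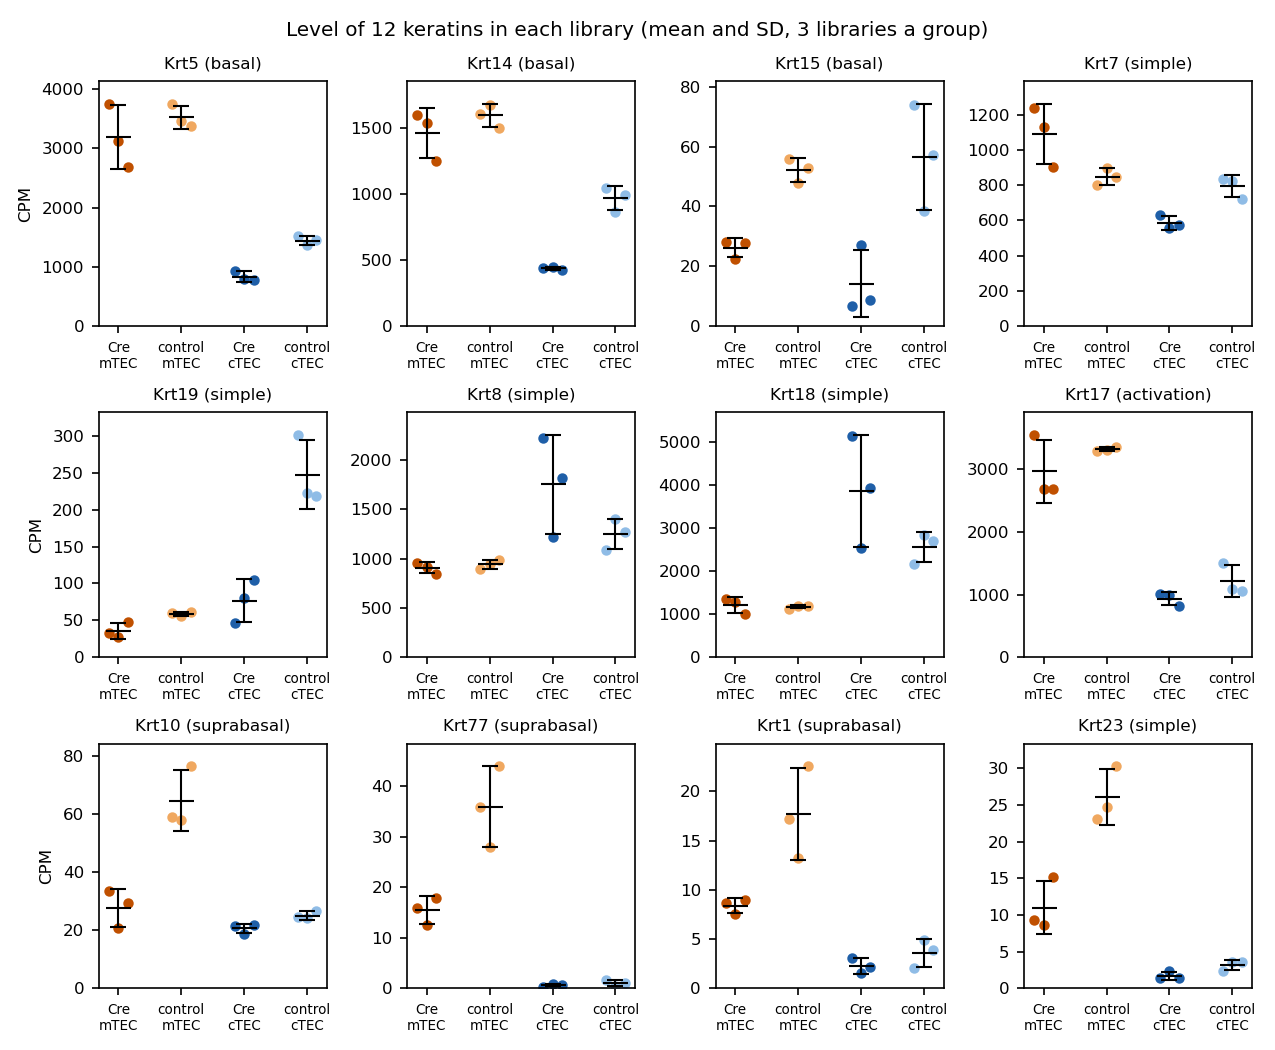
Level of 12 keratins (y axis, CPM) in each library, by group (x axis); points are libraries, the long bar is the group mean and the whiskers are the SD of 3 libraries. Krt14 sits at 428 to 445 CPM in Cre cTEC below the 865 to 1047 CPM of control cTEC, while Krt10, Krt77, Krt1 and Krt23 sit lower in Cre mTEC than in control mTEC.

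mTEC and cTEC differed in most of the family. Of the 41 keratins with enough reads to be tested (edgeR's filterByExpr), 33 were higher and 4 lower in mTEC than in cTEC among Cre libraries, and 33 were higher and 3 lower among controls (edgeR's quasi-likelihood test, adjusted p under 0.05). Over all 17268 genes tested, 49.6% passed among Cre libraries (25.1% higher, 24.5% lower in mTEC) and 59.2% among controls (29.3% higher, 30% lower). The counts describe the family only, since low genes such as Krt79 and Krt71 passed the read filter through their mTEC libraries. The median log2 fold change of the 41 was 2.16 in Cre and 2.11 in control libraries, beside -0.02 and -0.05 for all genes tested. Without library 11, 34 keratins were higher and 3 lower in mTEC among Cre libraries, of 42 tested. Over all genes in that fit, 29% were higher and 27.1% lower.

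The 3 keratins lower in mTEC at both genotypes were Krt18, Krt8 and Krt19, which build the filaments of simple epithelia. Krt18 had 1360.2, 1294 and 1013 CPM in Cre mTEC and 5143, 2539 and 3944 CPM in Cre cTEC (log2 change -1.67, with SE 0.20 and adjusted p = 9.23e-07). Among controls it had 1134, 1199 and 1189.9 CPM in mTEC and 2178, 2843 and 2695 CPM in cTEC (log2 change -1.13, adjusted p = 6.37e-05). Krt8 was also lower; it fell by 0.95 on the log2 scale in Cre (adjusted p = 9.74e-05) and by 0.41 in control libraries (adjusted p = 0.0405), and the control call was lost under 7 of 13 alternatives. Krt19 differed by -1.08 in Cre and -2.06 in control libraries (adjusted p = 0.00071 and 1.91e-07). The fourth lower gene, Krt6a in Cre libraries, rested on library 11, as described below.

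The basal pair ran the other way. Krt5 was higher in mTEC by 1.93 in Cre (adjusted p = 1.45e-09) and 1.28 in control libraries (adjusted p = 2.42e-07), and Krt14 by 1.74 and 0.72 (adjusted p = 1.26e-09 and 7.09e-05). Krt17, which pairs with type II keratins of stratified and stressed epithelium, was higher by 1.66 in Cre and 1.45 in control libraries (adjusted p = 5.49e-08 and 2.45e-07). Krt15, a marker of basal and hair follicle stem cells, passed as higher in mTEC among Cre libraries (log2 change 0.98, adjusted p = 0.0204), with 28.3, 22.6 and 27.9 CPM in Cre mTEC and 6.82, 27 and 8.77 CPM in Cre cTEC, where library 11 overlapped the mTEC values. That call was lost under 7 of 13 alternatives, DESeq2 and the robust fit among them, where adjusted p reached 0.122. Leaving out library 11 moved its log2 change to 1.79 (adjusted p = 8.84e-06). Among controls Krt15 had 55.7, 47.8 and 52.8 CPM in control mTEC and 74, 38.5 and 57.1 CPM in control cTEC, which overlapped (log2 change -0.12, adjusted p = 0.74).

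In Cre libraries the 4 widest gaps were those of Krt71, Krt20, Krt79 and Krt77. Among controls Krt24, Krt42, Krt16 and Krt78 also had wider gaps than Krt20, at log2 changes of 4.94, 4.31, 4.24 and 4.12. Krt20, known from gut epithelium, urothelium and Merkel cells, had 42, 44.4 and 62.7 CPM in Cre mTEC and 1.12, 3.5 and 0.731 CPM in Cre cTEC (log2 change 4.95, with SE 0.29 and adjusted p = 4.8e-11), and 58.1, 56.2 and 58.3 CPM in control mTEC and 3.11, 4.54 and 2.71 CPM in control cTEC (log2 change 4.06, with SE 0.25 and adjusted p = 8.33e-11). Krt71, of the inner root sheath of the hair follicle, was higher in mTEC by 5.04 in Cre and 4.53 in control libraries. Krt77, a relative of Krt1 known from the sweat duct, was higher by 4.70 and 5.05, and Krt79, of the upper hair follicle, by 4.88 and 5.14. For these 3 genes the adjusted p was at most 5.22e-08 in both comparisons. They had at most 9 counts in any cTEC library, so these gaps rest on few cTEC reads. All 5 epidermal and all 7 mucosal or other suprabasal keratins passed as higher in mTEC at both genotypes, as did 7 of 9 tested hair and nail keratins in Cre and 8 of 9 in control libraries. Over all genes, 25.1% and 29.3% were higher. Some entered the test through their mTEC reads, such as Krt24 (3, 1 and 0 counts in control cTEC) and Krt9 (5, 4 and 0), so these counts are descriptions. Fits of only the 6 libraries compared called 25 of 35 tested keratins higher in Cre and 33 of 40 in control libraries. Over all genes in those fits, 23.6% were higher in Cre and 34.3% in control libraries. Krt10 of the epidermal class was higher in mTEC by 0.43 among Cre libraries (adjusted p = 0.0369), with overlap between mTEC and cTEC, and lost its call under 7 of 13 alternatives. Without library 11 its log2 change was 0.39 (adjusted p = 0.067). Krt12 in Cre libraries (log2 change 1.23, adjusted p = 0.0314) lost its call under 5 of 12 alternatives. Apart from Krt84, the hair and nail keratins stayed at low levels in mTEC: Krt33b reached 3.54 to 5.12 CPM in Cre mTEC and 3.53 to 5.58 CPM in control mTEC. Krt33a with Krt33b, Krt81 with Krt83 and Krt86, and Krt6a with Krt6b are near-identical copies among which reads could have been split, so their single values are uncertain. Krt14, Krt16, Krt17 and Krt42 are also close relatives.

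**Figure D3:**
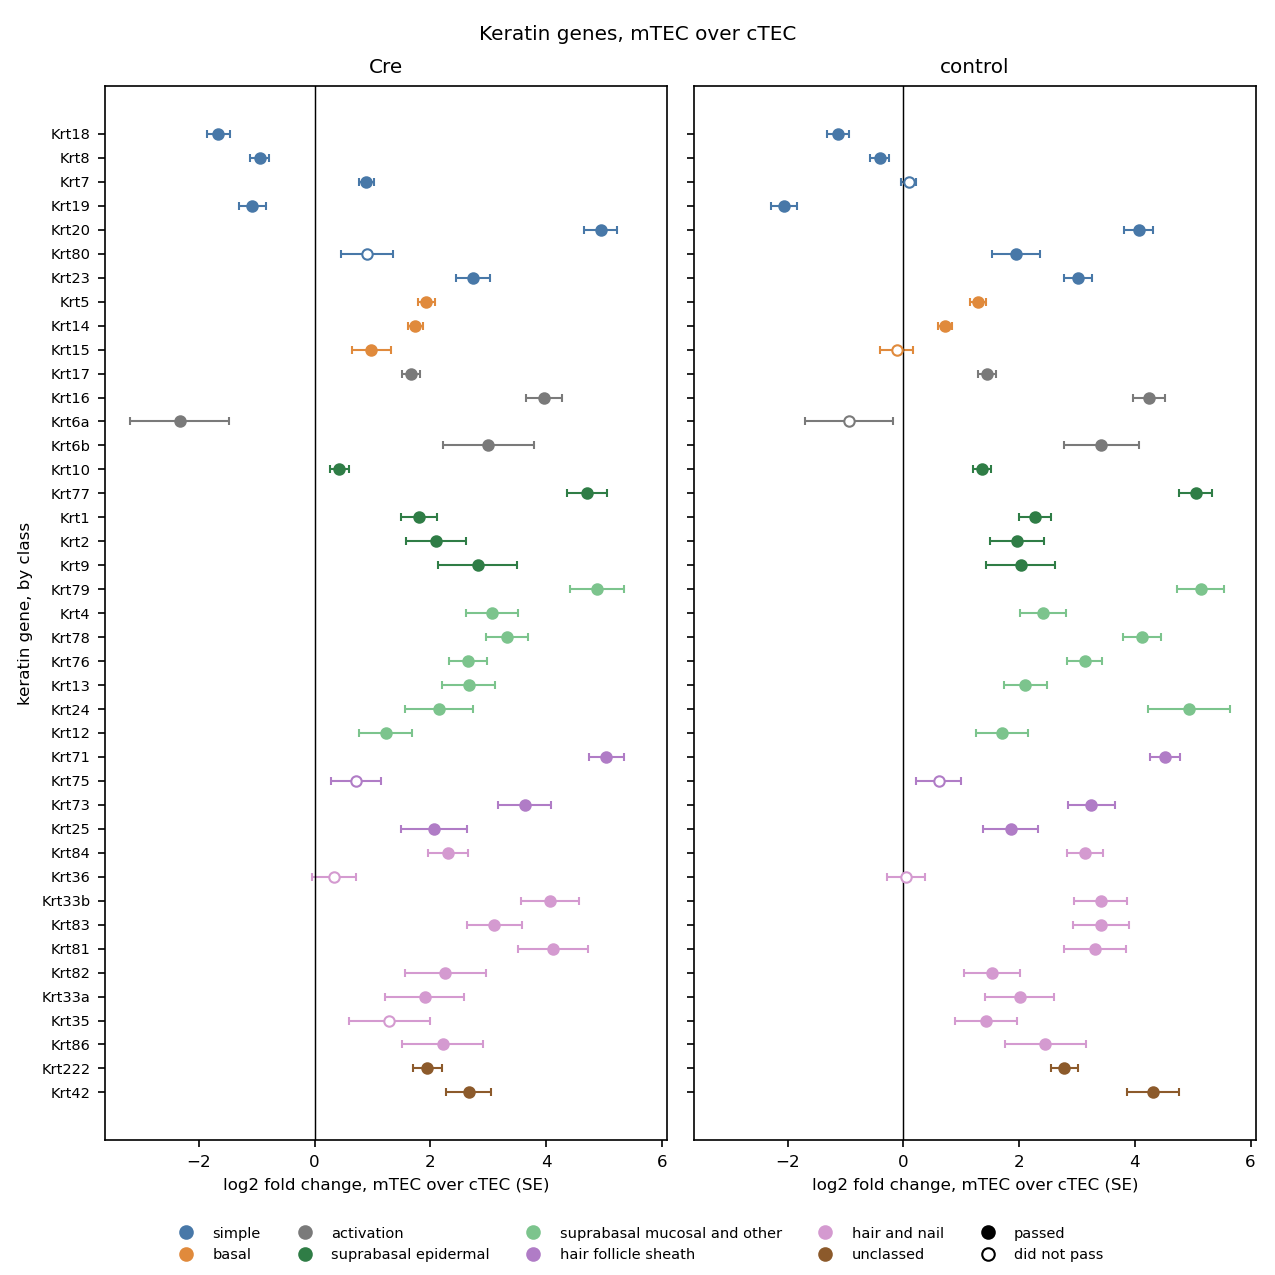
Log2 fold change of mTEC over cTEC (x axis) for the 41 tested keratins (y axis, by class) in Cre libraries (left) and control libraries (right); bars are the SE, filled points passed the test and open points did not. Krt18, Krt8 and Krt19 lie left of 0 in both panels, and Krt20, Krt71, Krt77 and Krt79 lie above 4.

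Basal keratin RNA was lower in Cre cTEC than in control cTEC. Of 41 tested keratins, 5 were lower in Cre cTEC than in control cTEC and none was higher, beside 9.01% that passed over all genes tested, 3.38% lower and 5.62% higher. DESeq2 called 6 lower and 2 higher, beside 3.75% lower and 6.89% higher over all genes in DESeq2. In the edgeR fit 14 of the 41 had an unadjusted p under 0.05, a description, since the share over all genes at that threshold is not given here. The 5 were all 3 basal keratins, Krt5, Krt14 and Krt15, with the simple keratins Krt7 and Krt19. The median of the 41 was -0.74, beside -0.02 for all genes tested. It rests in part on low counts, since many of the 41 passed the read filter through their mTEC libraries. In a fit of only the 6 cTEC libraries 22 keratins had enough reads, and 5 of them were lower and none higher. Over all genes in that fit, 3.01% were lower and 5.52% higher. In bulk RNA, fewer cells of a type and less RNA per cell cannot be told apart.

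Krt14, the basal type I keratin, had 438, 445 and 428 CPM in Cre cTEC libraries 10, 11 and 12 and 1047, 865 and 994 CPM in control cTEC libraries 7, 8 and 9. Its 3 Cre values lay close together and far below the controls (log2 change -1.15, with SE 0.13 and adjusted p = 1.25e-05). Its partner Krt5 had 937, 792 and 776 CPM in Cre cTEC against 1512, 1365 and 1452 CPM in control cTEC, also without overlap (log2 change -0.79, with SE 0.14 and adjusted p = 0.001). Krt15 had 6.82, 27 and 8.77 CPM in Cre cTEC, of which 27.0 belonged to library 11, and 74, 38.5 and 57.1 CPM in control cTEC (log2 change -2.08, with SE 0.32 and adjusted p = 0.000331). Krt14, Krt5 and Krt15 passed under all 13 alternatives. Without library 11 the log2 changes were -1.17 (adjusted p = 1.19e-05) for Krt14, -0.76 (adjusted p = 0.00113) for Krt5 and -2.88 (adjusted p = 1.14e-06) for Krt15.

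Krt19, a type I keratin that lacks most of the tail domain and is found in simple and progenitor epithelium, had 45.8, 79.9 and 104 CPM in Cre cTEC and 301, 222.3 and 218 CPM in control cTEC. Its groups were apart and the call held under all 13 alternatives (log2 change -1.70, with SE 0.22 and adjusted p = 7.24e-05). Krt7, a type II keratin of ducts and glands, had 629, 556 and 574 CPM in Cre cTEC and 837, 827 and 721 CPM in control cTEC. That smaller difference (log2 change -0.44, with SE 0.13 and adjusted p = 0.037) was lost without a read filter and without library 7, 8, 9 or 12, with adjusted p up to 0.149. Without library 11 Krt19 stood at -1.74 (adjusted p = 0.000275) and Krt7 at -0.41 (adjusted p = 0.0383).

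Krt18 and Krt8, the cortical pair, did not pass in the main edgeR fit of all 12 libraries. Krt18 had 5143, 2539 and 3944 CPM in Cre cTEC and 2178, 2843 and 2695 CPM in control cTEC, where library 11 fell among the controls (log2 change 0.59, with SE 0.19 and adjusted p = 0.0656). Krt8 had 2218, 1222 and 1820.2 CPM in Cre cTEC and 1092, 1398 and 1267 CPM in control cTEC (log2 change 0.49, with SE 0.17 and adjusted p = 0.0795). Without library 11 both passed as higher in Cre cTEC, Krt18 at 0.81 (adjusted p = 0.00103) and Krt8 at 0.68 (adjusted p = 0.000896). They also passed in DESeq2 with all libraries, at 0.60 (adjusted p = 0.00824) and 0.49 (adjusted p = 0.0124). Both passed as well with all libraries in voom, without a read filter, and with the filter of 5 CPM in 3 libraries. The call of this pair thus depended on the method as well as on library 11.

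Library 11 also moved several low keratins. Krt6a had 1.9, 36.9 and 1.46 CPM in Cre cTEC and 17.8, 8.41 and 4.71 CPM in control cTEC, so 1 library supplied nearly all of its Cre reads (log2 change 0.30, adjusted p = 0.91). Without it Krt6a was lower in Cre cTEC, at -2.58 (adjusted p = 0.00144), and its mTEC over cTEC log2 change in Cre was 0.56, in place of -2.33 with all libraries. Krt80 had 2.91, 12.4 and 1.75 CPM in Cre cTEC against 7.95, 4.71 and 4 CPM in control cTEC, and Krt75, of the companion layer of the hair follicle, had 2.01, 11.3 and 2.34 CPM against 8.64, 9.08 and 4.85 CPM. Library 11 was the highest of the Cre libraries for all 3 genes. With it left out, 11 keratins were lower and 2 higher, the additions being Krt4, Krt6a, Krt13, Krt20, Krt75 and Krt80 as lower and Krt8 and Krt18 as higher. The share over all genes also grew, to 4.89% lower and 8.18% higher of 17547 tested.

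Marker lists of the other cells that a cTEC gate could hold were read beside these values. Over all genes tested, 5.62% were higher and 3.38% lower in Cre cTEC, so a list with 1 called gene is given as a description only. The 12 cTEC identity genes summed to 10039.8 to 21475 CPM in Cre cTEC, lowest in library 11, and 9388 to 11329.8 CPM in control cTEC, with 6 genes higher and 1 lower, which was Foxn1. It had 73.2, 165.5 and 94.7 CPM in Cre cTEC and 271.3, 354 and 329.7 CPM in control cTEC (edgeR, log2 change -1.53, adjusted p = 0.00851). Only the Cre groups carried FoxN1-Cre, so lower Foxn1 and the targeting of the receptors cannot be told apart in this design. The mTEC list, of which 11 were tested, summed to 801 to 917 CPM in Cre cTEC and 623 to 822 CPM in control cTEC, with 4 higher and none lower. Ccl21a of that list had at most 2 counts in any library. The corneocyte list had 1 gene higher, Klk6, and 1 lower, Krtdap, and summed to 31.4, 160.5 and 32.8 CPM in Cre cTEC libraries 10, 11 and 12 against 61.4 to 68.5 CPM in control cTEC. Klk6, a kallikrein protease, alone had 45.5 CPM in library 11 and under 1 CPM in libraries 10 and 12. Tuft cell markers summed to 199 to 228 CPM in Cre cTEC and 256 to 265 CPM in control cTEC, with 2 of 12 lower. Thymocyte markers summed to 211 to 254 CPM in Cre cTEC and 197 to 299.9 CPM in control cTEC, with 1 of 11 tested lower. Endothelial markers summed to 20.3 to 40.6 CPM in Cre cTEC and 30.1 to 45.7 CPM in control cTEC, with 1 of 9 lower. Macrophage and dendritic cell markers summed to 76 to 104 CPM in Cre cTEC and 78.4 to 110.1 CPM in control cTEC, with 1 of 11 higher. These 3 lists overlapped between genotypes. Fibroblast markers summed to 605 to 716 CPM in Cre cTEC and 450.3 to 532 CPM in control cTEC, with 2 of 12 higher and 1 lower. The part of these cells in the keratin values was not tested.

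Krt10, Krt77 and Krt1, 3 of the 5 suprabasal epidermal keratins, were lower in Cre mTEC. Of 41 tested keratins, 8 were lower in Cre mTEC than in control mTEC and none was higher, beside 2.07% that passed over all genes tested, 1.49% lower and 0.585% higher. DESeq2 called 10 lower and none higher, beside 2.74% lower and 0.73% higher over all genes in DESeq2. In the edgeR fit 19 of the 41 had an unadjusted p under 0.05, a description, since the share over all genes at that threshold is not given here. The 8 were Krt10, Krt77 and Krt1 of the epidermal class, Krt78 of other stratified epithelia, Krt16 of activated epithelium, Krt23, Krt84 and Krt222. Of 3 basal keratins none passed in this edgeR fit. Krt15 did pass with voom, without a read filter and with only the 6 libraries compared. Of the 41 fold changes, 39 were negative, with a median of -0.71 beside 0.01 for all genes tested. Some low genes passed the read filter through control mTEC, such as Krt35 (20, 14 and 18 counts there, and 3, 6 and 6 in Cre mTEC). The count of signs and the median are therefore descriptions.

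Krt10, which pairs with Krt1 when epidermal cells leave the basal layer, had 33.5, 20.6 and 29.2 CPM in Cre mTEC libraries 4, 5 and 6 and 59.1, 58 and 76.6 CPM in control mTEC libraries 1, 2 and 3. Every Cre value lay below every control (log2 change -1.21, with SE 0.15 and adjusted p = 0.00035). Krt1 had 8.67, 7.53 and 8.98 CPM in Cre mTEC against 17.2, 13.2 and 22.6 CPM in control mTEC (log2 change -1.07, with SE 0.25 and adjusted p = 0.0289), and Krt77 had 15.8, 12.5 and 17.9 CPM against 35.8, 28 and 44 CPM (log2 change -1.22, with SE 0.20 and adjusted p = 0.00338). All 3 were apart between genotypes. Krt2 and Krt9 of the same class, at most 6.27 CPM in any library, did not pass (log2 change -0.59, adjusted p = 0.554, and log2 change -0.18, adjusted p = 0.917).

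Krt78 was the member of the mucosal and other suprabasal class to pass, with 8.98, 6.93 and 12.1 CPM in Cre mTEC and 24.2, 16.7 and 21.2 CPM in control mTEC (log2 change -1.15, with SE 0.24 and adjusted p = 0.0164). Krt79 had 10.5, 10.1 and 19.3 CPM against 28.1, 23.2 and 29.8 CPM and Krt76, of the palate, had 7.3, 7.98 and 10.7 CPM against 14.6, 14.3 and 17.6 CPM, both without overlap, and both missed the threshold (adjusted p = 0.0524 and 0.0881). Krt4 and Krt13 are the pair of the oesophagus and other wet mucosa. Krt4 had 14.4, 10.8 and 22 CPM in Cre mTEC and 17.1, 20.8 and 21.7 CPM in control mTEC and overlapped (log2 change -0.32, adjusted p = 0.732). Krt13 had 2.89, 5.12 and 6.94 CPM in Cre mTEC and 7.99, 8.64 and 8.62 CPM in control mTEC, without overlap and short of the threshold (log2 change -0.75, adjusted p = 0.289). Krt24 had 3.5, 4.37 and 3.81 CPM against 6.02, 6.78 and 8.62 CPM and Krt12, of the cornea, stayed at or below 6.40 CPM (adjusted p = 0.394 and 0.703).

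Krt16, a type I keratin of activated and rapidly renewing epithelium, had 11.7, 11.8 and 13.2 CPM in Cre mTEC and 22.4, 18.7 and 24 CPM in control mTEC (log2 change -0.83, with SE 0.20 and adjusted p = 0.0356). Krt17 of the same class was far more abundant and overlapped, at 3551, 2679.8 and 2684 CPM in Cre and 3293, 3311 and 3363 CPM in control mTEC (log2 change -0.16, adjusted p = 0.713). Krt23 had 9.28, 8.58 and 15.1 CPM in Cre mTEC against 23.1, 24.7 and 30.3 CPM in control mTEC (log2 change -1.23, with SE 0.21 and adjusted p = 0.00473). Krt84, a hair and nail keratin also known from the tongue, had 3.5, 7.53 and 9.79 CPM against 17, 19 and 17.8 CPM (log2 change -1.36, with SE 0.26 and adjusted p = 0.00862). Krt222, a divergent type I gene with no class here, had 11.9, 9.64 and 13.7 CPM against 21, 23.2 and 23.3 CPM (log2 change -0.93, with SE 0.20 and adjusted p = 0.0174). None of the 4 lower genes overlapped between genotypes.

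Krt18 and Krt8, the core of the simple filament, overlapped between genotypes in mTEC. Krt18 had 1360.2, 1294 and 1013 CPM in Cre and 1134, 1199 and 1189.9 CPM in control mTEC, and Krt8 had 960.4, 919.5 and 845 CPM and 894, 943 and 987 CPM. Neither passed (log2 change 0.06, adjusted p = 0.935, and log2 change -0.05, adjusted p = 0.933). Krt5 had 3746, 3128 and 2679.5 CPM in Cre and 3737, 3449.8 and 3366 CPM in control mTEC, and Krt14 had 1595, 1538 and 1247 CPM and 1605, 1674 and 1499 CPM. Both overlapped as well and did not pass, with log2 fold changes of -0.14 and -0.13 (SE 0.14 and 0.12). Krt15 had 28.3, 22.6 and 27.9 CPM in Cre mTEC and 55.7, 47.8 and 52.8 CPM in control mTEC, which did not overlap but missed the threshold (log2 change -0.99, adjusted p = 0.0923). Krt19 behaved likewise, at 33.2, 26.9 and 47.7 CPM against 59.7, 56.3 and 61.3 CPM (log2 change -0.71, adjusted p = 0.124). A p that misses the threshold does not show that the genotypes are alike.

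Krt10, Krt77, Krt23 and Krt84 kept their call under all 13 alternatives. Leaving out 1 library removed others: Krt1 and Krt78 failed without library 1, 3, 4 or 5, and Krt16 and Krt222 without library 1, 2, 3, 4 or 5, with adjusted p up to 0.181. The count of lower keratins then fell to as few as 4, beside 0.342% to 0.737% lower over all genes. Other keratins gained a call as lower. Krt79 and Krt76 did so with DESeq2 (adjusted p = 0.0113 and 0.0462), voom, no read filter, only the 6 libraries compared and without library 6. Krt19 and Krt80 did so with voom, no read filter and the 6 libraries, and Krt71 with voom and the 6 libraries. The share over all genes also grew, to 2.74% lower with DESeq2 and 6.36% with voom.

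Corneocyte markers were read beside the mTEC values. Its 12 genes summed to 156 to 204 CPM in Cre mTEC and 339 to 412 CPM in control mTEC. Lor, Krtdap, Spink5, Calm4 and Dmkn, all expressed in the outer layers of the epidermis, were lower and none was higher. Over all genes tested, 1.49% were lower and 0.585% higher in Cre mTEC. Lor, the main protein of the cornified envelope, averaged 7.67 ± 0.217 CPM in Cre and 16.6 ± 3.19 CPM in control mTEC (log2 change -1.11, with SE 0.21 and adjusted p = 0.00885). Of 11 tested mTEC markers none passed, and they summed to 3750.0 to 4318 CPM in Cre and 4300.4 to 4486 CPM in control mTEC. The cTEC identity list had 2 of 12 lower, at 1944 to 2761 CPM in Cre and 2285 to 2554 CPM in control mTEC, and tuft cell markers had none, at 438 to 657 CPM in Cre and 595 to 717 CPM in control mTEC. Foxn1, 1 of the 2 lower cTEC identity genes, had 156.1, 34 and 57.7 CPM in Cre mTEC and 291.5, 232 and 240.2 CPM in control mTEC (edgeR, log2 change -1.63, adjusted p = 0.0216). Thymocyte, endothelial, and macrophage and dendritic cell lists had none that passed, and fibroblast markers had 1 of 12 lower, at 342 to 512 CPM in Cre and 436 to 554 CPM in control mTEC. Their part in the keratin values was not tested.

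**Figure D4:**
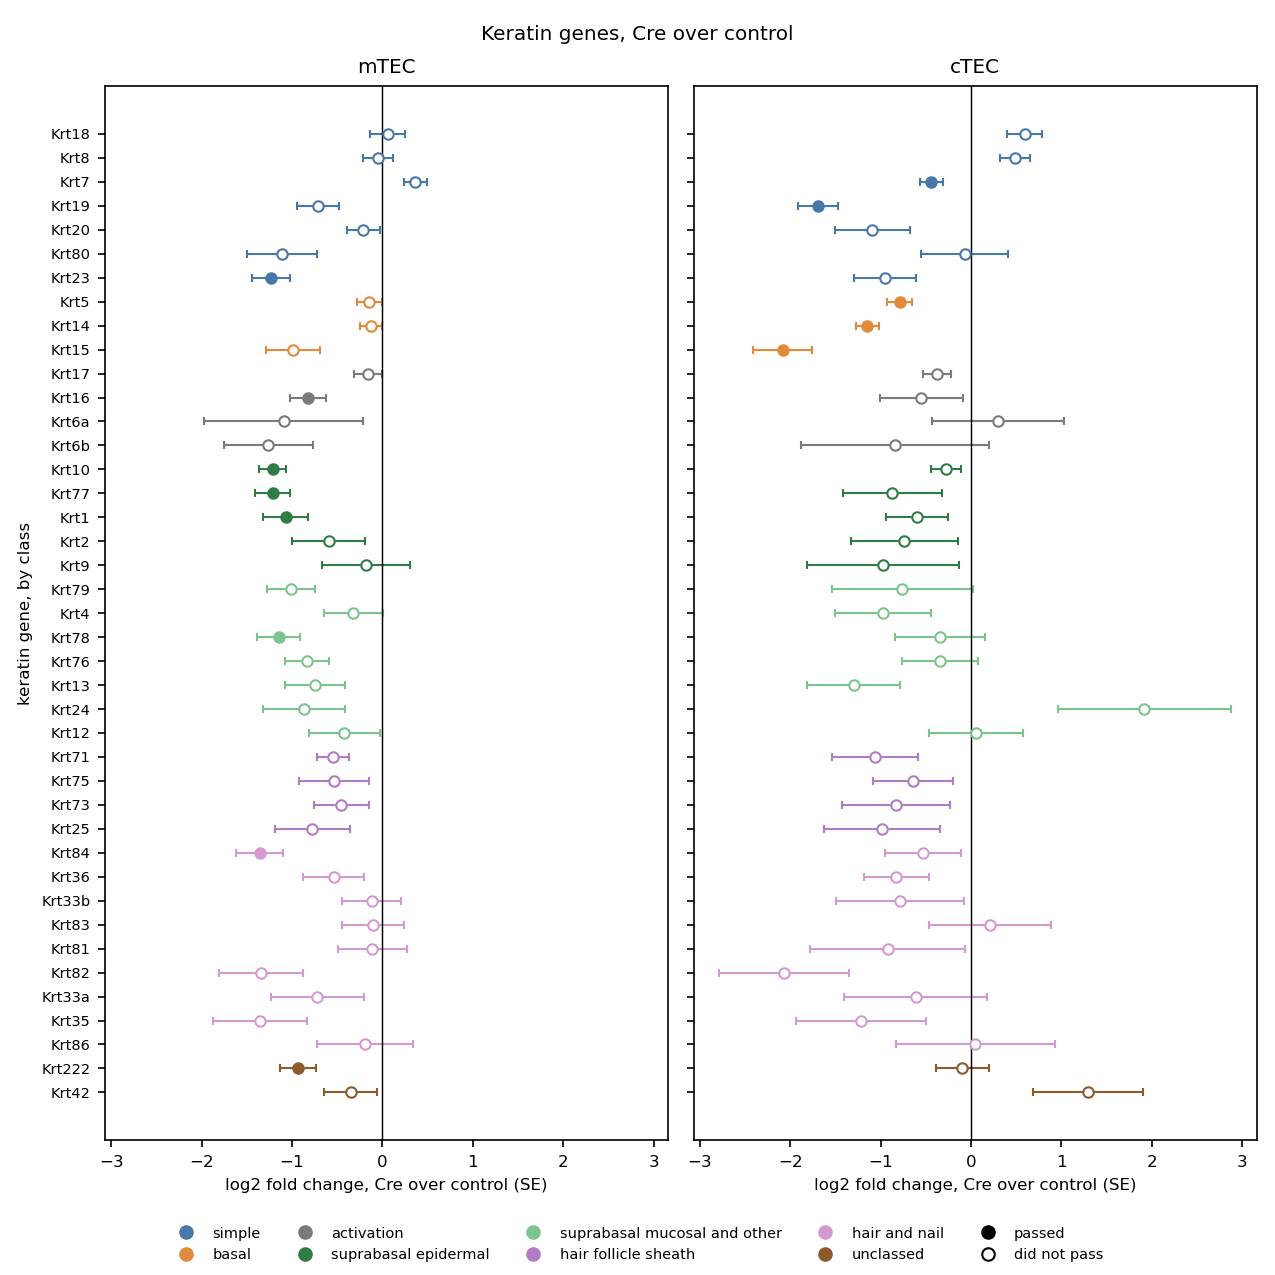
Log2 fold change of Cre over control (x axis) for the 41 tested keratins (y axis, by class) in mTEC (left) and cTEC (right); bars are the SE, filled points passed the test and open points did not. The filled points are Krt7, Krt19, Krt5, Krt14 and Krt15 in cTEC, and Krt23, Krt16, Krt10, Krt77, Krt1, Krt78, Krt84 and Krt222 in mTEC, all left of 0.

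The difference between the genotype effects of cTEC and mTEC was tested directly, as an interaction over all 12 libraries. It passed for 3 of 41 keratins, 1 higher and 2 lower, beside 4.01% that passed over all genes tested, 2.92% higher and 1.08% lower. Krt14 was lower in Cre cTEC and did not pass in mTEC, and its effects differed by -1.02 (SE 0.18, adjusted p = 0.00311), which held under all 18 alternatives. Krt7 was lower in Cre cTEC and had 1237, 1131 and 901 CPM in Cre mTEC against 801, 896 and 847 CPM in control mTEC (log2 change 0.36, adjusted p = 0.161). Its effects differed by -0.80 (SE 0.18, adjusted p = 0.0156), lost without library 1. Krt10 was the reverse case, with 21.5, 18.6 and 21.6 CPM in Cre cTEC and 24.4, 24.1 and 26.7 CPM in control cTEC (log2 change -0.28, adjusted p = 0.403). Its effects differed by 0.94 (SE 0.22, adjusted p = 0.0218), lost without library 3, 5 or 7. Without library 11 the values were -1.004 (adjusted p = 0.00121) for Krt14, -0.73 (adjusted p = 0.011) for Krt7 and 1.02 (adjusted p = 0.00992) for Krt10. Krt8, Krt15, Krt18 and Krt20 then passed too, which made 3 higher and 4 lower, beside 9.37% that passed over all genes tested.

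For the other called keratins the edgeR test over all 12 libraries did not show the effects to differ. Krt5 gave -0.65 (adjusted p = 0.0762), Krt15 gave -1.10 (adjusted p = 0.198) and Krt19 gave -0.98 (adjusted p = 0.0983). Some alternatives did: Krt5 passed under 5 of 18, DESeq2 and voom among them, Krt15 under 3 of 18 and Krt19 under 2 of 18, all with the same sign. The mTEC calls Krt77, Krt1, Krt78, Krt16, Krt23, Krt84 and Krt222 gave adjusted p between 0.233 and 0.862. Most of these genes had only a few CPM in cTEC. Krt77, for example, had 0.335, 0.777 and 0.731 CPM in Cre cTEC and 1.56, 0.504 and 1.14 CPM in control cTEC.

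The remaining members were low or did not pass for genotype. Krt20 overlapped between genotypes in both cell types, with log2 change -0.21, adjusted p = 0.679 in mTEC and log2 change -1.09, adjusted p = 0.12 in cTEC. In cTEC Krt20 passed as lower in Cre without library 11 at -1.84 (adjusted p = 0.00684), in DESeq2 at -1.07 (adjusted p = 0.0262), with voom at -1.81 (adjusted p = 0.0189) and without a read filter at -1.04 (adjusted p = 0.0232). Krt80 had 9.74, 7.53 and 12.1 CPM in Cre mTEC and 21.2, 16.4 and 26.1 CPM in control mTEC (log2 change -1.11, adjusted p = 0.151), and Krt75 had 6.08, 9.04 and 8.43 CPM and 12.3, 11.1 and 10.7 CPM (log2 change -0.53, adjusted p = 0.594). Both were apart between genotypes and missed the threshold. Krt71 had 14.6, 17.5 and 21.6 CPM in Cre mTEC and 25.7, 24.6 and 28.4 CPM in control mTEC, without overlap (log2 change -0.55, adjusted p = 0.116), and Krt73 of the same root sheath had 7.76, 4.07 and 8.57 CPM and 10.2, 9.74 and 7.97 CPM (log2 change -0.45, adjusted p = 0.547). Krt42 had 4.87, 4.07 and 4.22 CPM in Cre mTEC and 4.67, 5.91 and 6.27 CPM in control mTEC, and 0.447, 0.777 and 0.877 CPM in Cre cTEC and 0.173, 0.168 and 0.428 CPM in control cTEC. Krt2, Krt6b, Krt9, Krt12, Krt25, Krt33a, Krt33b, Krt35, Krt36, Krt81, Krt82, Krt83 and Krt86 stayed below a mean of 5 CPM in every group, and none passed for genotype in edgeR over all 12 libraries. Krt6b of these passed as lower in Cre mTEC with voom and with only the 6 mTEC libraries. The 9 keratins with too few reads to test, Krt26, Krt27, Krt28, Krt31, Krt32, Krt34, Krt39, Krt40 and Krt74, had at most 20 counts in any library and belong to the hair follicle sheath, hair and nail. In the annotation used for lengths, 11 of the 50 genes share an exon with a gene on the opposite strand, Krt5, Krt7, Krt8 and Krt10 among them, and the library kit does not mark strand, so reads of such pairs cannot be told apart.

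Genes that anchor keratin filaments were read beside the family. Of 15 linkers and keratin-binding genes, 2 were lower in Cre cTEC and none higher, beside 3.38% lower and 5.62% higher over all genes tested, and none passed in mTEC, beside 2.07% over all genes. The 2 lower genes were Col17a1, the hemidesmosomal collagen of basal cells (log2 change -0.98, with SE 0.15 and adjusted p = 0.000295), and Itga6, the integrin chain that holds basal cells to the basement membrane (log2 change -0.54, with SE 0.12 and adjusted p = 0.00496). Col17a1 had 43.2, 48.8 and 50.7 CPM in Cre cTEC and 110.3, 81.6 and 88.5 CPM in control cTEC. The desmosomal linker Dsp did not pass in cTEC (log2 change 0.21, adjusted p = 0.513). Itgb4, Dst and Plec of the same list had positive log2 changes in cTEC, at 0.275, 0.288 and 0.216. None of these 3 passed in edgeR (adjusted p = 0.258, 0.17 and 0.429). The median of the 15 genes was 0.216 in cTEC, beside -0.02 for all genes tested, so the 2 lower genes do not stand for the list. Of 16 tested regulators of stratified epithelium, 1 was higher and 1 lower in Cre cTEC, beside 5.62% higher and 3.38% lower over all genes tested. The higher one was Zfp750, a factor of epidermal differentiation (log2 change 0.73, adjusted p = 0.0117). In Cre mTEC 2 of the 16 were lower, Grhl1 (log2 change -0.61, adjusted p = 0.046) and Ovol1 (log2 change -0.79, adjusted p = 0.0275), and none was higher. Over all genes tested, 1.49% were lower and 0.585% higher there. Trp63, the master factor of basal epithelium, did not pass in cTEC (log2 change -0.21, adjusted p = 0.399) or mTEC (log2 change 0.10, adjusted p = 0.808).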

How the data were processed

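Thymic epithelial cells were dissociated with Liberase TH and DNase and sorted into lysis buffer, and a SMARTer low-input kit (unstranded) was used for the libraries, per the labels' protocols. The unit is raw read counts of genes named by symbol, in 1 table that the authors deposited. Mouse build mm9 and the tools STAR, HTSeq and edgeR are named in the submitters' processing notes. Versions, annotation and strand setting were not given in the sources used here. Coordinates shown come from RefSeq on GRCm38.p6, a different build, as do chromosomes. Transcript lengths (longest transcript) and exon overlaps come from GENCODE M21 on GRCm38, matched by symbol for 50 of 50 keratins. Where a shorter transcript is the one expressed, the level per kilobase comes out too low.

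From these counts, CPM were computed with TMM scaling. The test was edgeR's two-sided quasi-likelihood test (edgeR 4.0.16, R 4.3.3) in 1 fit of 4 groups over 12 libraries, with 8 residual degrees of freedom. A total of 17268 genes passed filterByExpr, and Benjamini-Hochberg adjustment ran over all of them, with a threshold of 0.05. Log2 fold changes have Cre on top of control, or mTEC on top of cTEC. The difference subtracts the effect in mTEC from that in cTEC. Depth was 4804697 to 11159013 counts per library, and 1 count was worth 0.0898 to 0.194 CPM. No pair of libraries agreed within sampling noise (chi-square per degree of freedom 3.28 to 12.9 within groups).

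Library numbers run through all 12 libraries, and the labels do not say whether a cTEC and an mTEC library share animals, so any such pairing is unknown and was not modelled. Alternatives were DESeq2 size factors, DESeq2 1.42.0, limma 3.58.1 voom with quality weights, a robust fit, no read filter, at least 5 CPM in 3 libraries, a fit to the 6 libraries of the groups compared, and leaving out each library. Keratins called for genotype or in the difference, the 12 most abundant, and those with a mean of 5 CPM in a group are named with values. Marker lists covered cTEC, mTEC, corneocyte, tuft cell, thymocyte, fibroblast, endothelial, and macrophage and dendritic cell; other lists were linkers, regulators and other intermediate filaments. Not every regulator is reported here. Members, classes and lists were chosen with earlier results of these data known.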

Additional observations from a re-analysis of the deposited data

Results flagged for a closer look

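The effect of genotype differed between the cell types, by the interaction test in edgeR, for 3 keratins. Krt14 differed by -1.02 on the log2 scale (cTEC effect minus mTEC effect, adjusted p = 0.00311), with all 3 Cre cTEC libraries below all 3 controls and overlap in mTEC. Krt7 differed by -0.80 (adjusted p = 0.0156), with all 3 Cre libraries below the controls in cTEC and above them in mTEC. Krt10 differed by 0.935 (adjusted p = 0.0218), with all 3 Cre libraries below the controls in each cell type and a larger gap in mTEC. Over all genes tested, 4.01% passed this test.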

How the results depend on the processing

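The count of keratins called for genotype in cTEC was 5, and became 8 with DESeq2, 12 with voom and 4 to 13 with 1 library left out, the highest without library 11. The share called over all genes moved as well. In cTEC it was 9.01%, and became 10.6% with DESeq2, 12.7% with voom and 5.73% to 13.1% with 1 library left out. In mTEC the keratin count was 8, and became 14 without a read filter, 18 with voom, 17 with only the 6 libraries compared and 4 to 12 with 1 library left out. The share over all genes was 2.07%. It became 3.35% without a read filter, 9.68% with voom, 6.31% with the 6 libraries and 0.44% to 3.75% with 1 library left out. For the difference the keratin count was 3, and became 8 without a filter, 6 with voom and 2 to 7 with 1 library left out. The share over all genes was 4.01%, and became 3.64%, 8.1% and 2.09% to 9.37% in the same order. The fit on 6 libraries does not apply there. Between mTEC and cTEC the count was 37 in Cre (32 to 37 with 1 library left out, 26 to 39 otherwise) and 36 in control libraries (33 to 35, and 24 to 38). Over all genes the share was 49.6% in Cre (41.1% to 56.1%, and 24.8% to 58.3%) and 59.2% in control libraries (50.6% to 52.6%, and 32% to 66.9%). Krt6a reversed in Cre over control in cTEC, to -2.05 with voom and -2.58 without library 11 (-2.58 to 0.98 with 1 library left out), and in mTEC over cTEC in Cre, to 0.28 and 0.56 (-2.89 to 0.56 with 1 library left out). Among single keratins over all alternatives, 642 genotype values kept their call or its absence, 51 gained it and 23 lost it; the cause was not tested. Under length scaling the simple share became 27.5% in Cre mTEC and 24.6% in control mTEC, the basal share 38.9% in Cre mTEC, 39.7% in control mTEC and 25.9% in control cTEC, the activation share 32.2% in Cre mTEC and 33.4% in control mTEC, and the suprabasal share 1.48% in control mTEC and 0.398% in control cTEC. Without length scaling the ratio of type II to type I was 0.907 in Cre mTEC, 0.863 in control mTEC, 0.603 in Cre cTEC and 0.691 in control cTEC. DESeq2 size factors moved the median of all genes by less than 0.1 on the log2 scale. Few reads limit the keratins below 5 CPM, above all in cTEC. No paired analysis was possible because the groups share no replicate numbers and the labels do not say which cTEC and mTEC libraries, if any, share animals.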

Other observations

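Intermediate filament genes outside the keratin family were read in mTEC and cTEC as well. Of 14 tested, 7 were higher and 3 lower in mTEC than in cTEC among Cre libraries, and the counts were the same among controls. Over all genes tested, 25.1% were higher and 24.5% lower in mTEC among Cre libraries, and 29.3% higher and 30% lower among controls. Vim, the filament gene of mesenchymal cells, averaged 145 ± 17.9 CPM in Cre mTEC and 24.1 ± 4.55 CPM in Cre cTEC, and 144 ± 2.84 CPM in control mTEC and 18.1 ± 4.45 CPM in control cTEC (SD, n = 3; log2 change 2.60, adjusted p = 6.9e-11 in Cre, and log2 change 2.99, adjusted p = 9.32e-12 in control libraries, edgeR). The neuronal filament gene Prph and the muscle filament gene Des were also higher in mTEC, Prph by 4.12 in Cre and 4.72 in control libraries and Des by 3.20 and 3.37. Synm, a large filament protein that joins Des and Vim in muscle, was lower in mTEC, with log2 changes of -1.72 in Cre and -1.54 in control libraries. It averaged 114 ± 17.2 CPM in Cre mTEC and 376 ± 86.6 CPM in Cre cTEC, and 131 ± 16.5 CPM in control mTEC and 383 ± 13.8 CPM in control cTEC. For genotype, Nefm was higher (log2 change 0.74, adjusted p = 0.0475) and the lamin gene Lmna lower (log2 change -0.44, adjusted p = 0.0264) in Cre cTEC, and none of the 14 passed in mTEC.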
